A study of Rattus norvegicus with 16 samples.

Results

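The data described here are the array signals of 5 genes that mark the lining of the brain ventricles: *Vim*, *Foxj1*, *Drc12*, *Tekt1* and *Crym*. They were taken as all probe sets whose only gene symbol in the platform annotation was one of these names. Each gene had 1 probe set, so the 5 genes gave 5 of the 31042 probe sets on the array that were not controls, and 5 of the 14217 genes with a probe set of their own. All 5 probe sets lay above the filter on dim probe sets, a mean log2 signal of 7.35 over all arrays (a signal of 163), which 15521 probe sets passed. The genes had been selected on results of the same 16 arrays. *Vim* and *Foxj1* were chosen by the size of their statistic in zinc-deficient against pair-fed rats, and *Vim*, *Drc12*, *Tekt1* and *Crym* by that in recovered rats against their controls. Their levels and fold changes are therefore given as descriptions, with no p value.

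RNA came from the diencephalon, which holds the thalamus and hypothalamus, of male Sprague-Dawley (SD) rats that were 5 weeks old at the start, with 1 array per rat and 4 rats per group. ZD rats ate a diet with 0.6 mg zinc per 1000 g for 10 days. PF rats were pair-fed the control diet, with 30 mg zinc per 1000 g, in amounts that matched the intake of the ZD rats. ZR rats ate the deficient diet for 10 days and then 13 g of the control diet a day for 6 days. ZRPF rats were pair-fed the control diet for 10 days and then had the same 6 days on 13 g. All 4 groups had a 48 h choice of 300 mM NaCl during the deficient period, and the 16-day groups had a second choice at the end of recovery. Each experiment began with 9 rats on the deficient diet and 6 pair-fed rats, and the submitters put on arrays 4 per group that were average in body weight, plasma zinc and salt preference. Before that choice, 3 ZR rats and 1 ZRPF rat had been taken out for their salt preference, so the spread between arrays is not that of all rats.

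The ventricles are lined by ependymal cells, whose beating cilia move cerebrospinal fluid, and in the floor and lower walls of the third ventricle by tanycytes, which send long processes into the hypothalamus. FOXJ1 is the transcription factor that switches on the programme of motile cilia. TEKT1 is a tektin, a filament protein inside the doublet microtubules of the axoneme, and DRC12 (formerly CCDC153) belongs to the nexin-dynein regulatory complex that links those doublets. VIM is vimentin, an intermediate filament protein of ependyma and tanycytes that endothelial, mural and meningeal cells also make. CRYM is mu-crystallin, a binding protein for thyroid hormone that marks tanycytes and is also made by neurons of the forebrain.

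Markers of ependyma and of tanycytes were each measured in part. Of 77 genes with a probe set on a list of motile cilium and ependyma genes, 39 passed the filter, and of 43 on a list of tanycyte genes, 24 passed. Beside *Vim* and *Crym*, the tanycyte genes that passed included *Lhx2*, *Frzb*, *Col25a1*, *Scn7a*, *Slco1c1* and *Vcan*. Group means of the mean log2 signal of the 24 genes were 10.04 to 10.11. Some other tanycyte genes were dim. *Rax*, a transcription factor that defines tanycytes, was below the filter on both of its probe sets, with group means of 0.60 to 2.73 on the log2 scale for one and 5.47 to 5.75 for the other. *Dio2*, the deiodinase that activates thyroid hormone in tanycytes, had a mean log2 signal of 2.99 in ZD, 4.14 in PF, 4.90 in ZR and 4.59 in ZRPF rats, also below it. *Nes*, the intermediate filament nestin, averaged 7.04 in ZD, 6.71 in PF, 6.86 in ZR and 6.95 in ZRPF rats, and was below it too. Of the RFX factors, which act with FOXJ1 on ciliary genes, *Rfx2* was below the filter, while the brighter of 2 *Rfx3* probe sets averaged 8.74 in ZD, 8.89 in PF, 8.88 in ZR and 8.92 in ZRPF rats. In whole diencephalon, fewer ependymal cells or tanycytes and less RNA per cell cannot be told apart.

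Arrays of the 2 experiments stood apart. The first principal component, with 35.1% of the variance, separated the 10-day from the 16-day arrays. The 3 prime over 5 prime signal ratio of beta-actin is a measure of how much of each transcript was labelled. It was 2.59 to 3.31 on 10-day arrays and 4.14 to 5.59 on 16-day arrays. The same ratio of GAPDH differed less, at 1.03 to 1.11 on 10-day arrays and 1.11 to 1.23 on 16-day arrays. ZD 9 stood highest on the second component (19.37, 9.1% of the variance). Correlations of whole arrays within a group were 0.944 to 0.961.

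*Vim* was higher in ZD than in PF rats and lower in ZR than in ZRPF rats. Its log2 signal was 10.86, 11.20, 11.17 and 10.67 in ZD rats 2, 3, 8 and 9, against 10.48, 10.67, 10.57 and 10.55 in PF rats 1, 2, 4 and 6. It was 10.66, 10.60, 10.56 and 10.81 in ZR rats 7, 10, 13 and 15, against 10.90, 11.03, 11.12 and 10.93 in ZRPF rats 2, 4, 5 and 6. ZD and PF rats met only at ZD 9 and PF 2, and all ZR rats lay below all ZRPF rats. The log2 difference was 0.40 ± 0.10 (SE, 1.32-fold) for ZD against PF, and −0.34 ± 0.10 (0.791-fold) between ZR and ZRPF rats. Group means were 10.97 ± 0.25 in ZD, 10.57 ± 0.08 in PF, 10.66 ± 0.11 in ZR and 10.99 ± 0.10 in ZRPF rats (SD, n = 4 each). In order of level, ZRPF and ZD overlapped at the top and ZR and PF at the bottom. The difference between diets was positive in ZD against PF rats and negative in ZR against ZRPF rats, which were other rats in another experiment. These 2 changes differed by 0.74 ± 0.14 on the log2 scale. Both contrasts had been used to choose *Vim*, so nothing is read from the size of this value or from the change of sign. The value takes in a difference of 0.42 between ZRPF and PF rats as well as −0.32 between ZR and ZD rats.

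**Figure D1:**
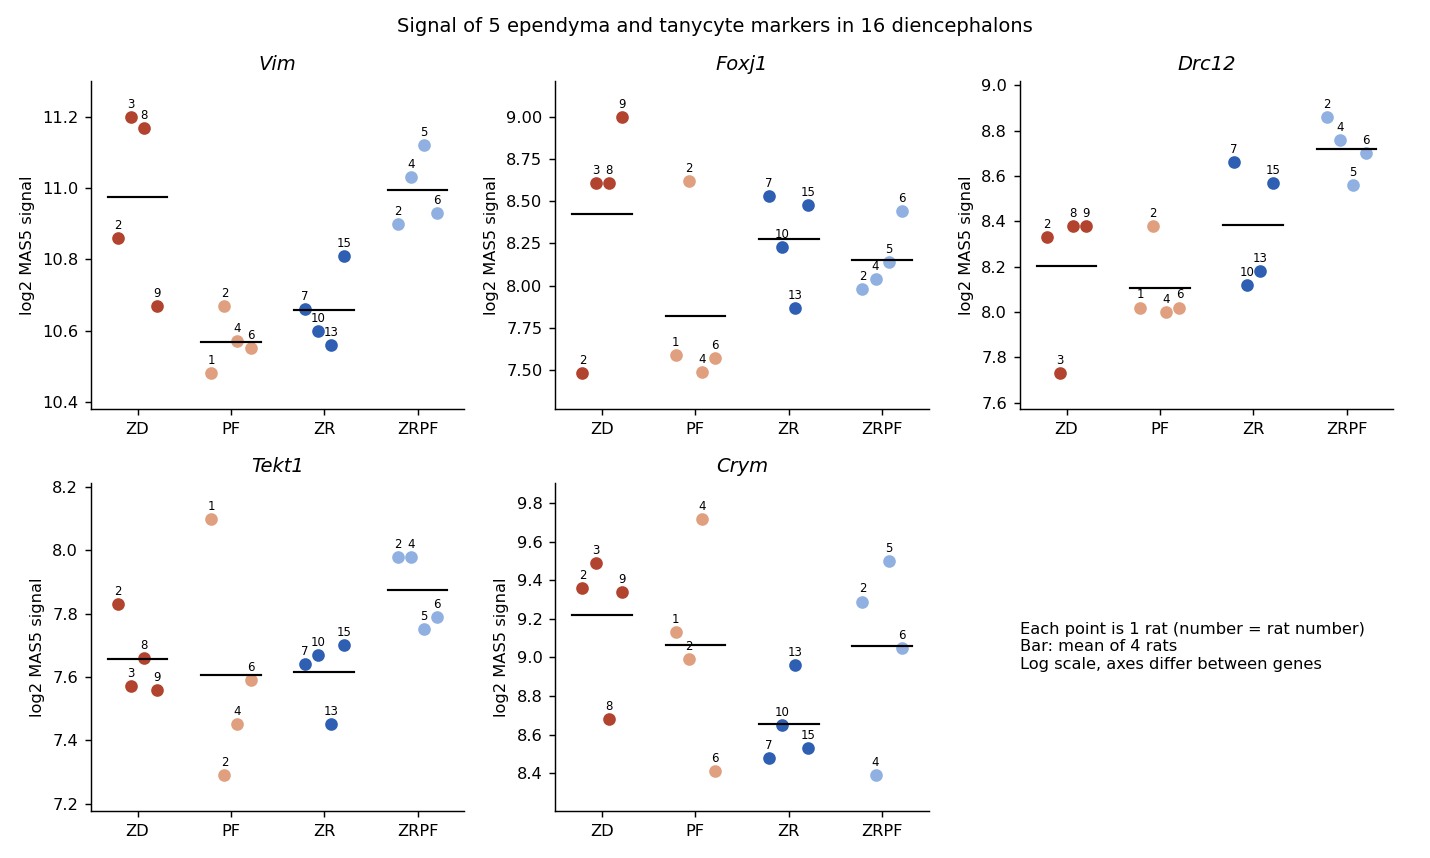
Log2 signal of the 5 markers in each of 16 rats, by group (1 numbered point per rat, bar at the group mean, axes that differ between genes and do not start at 0). *Vim* was highest in ZRPF and ZD rats, 1 PF rat stood far above the other PF rats in *Foxj1*, and *Tekt1* lay near the filter of 7.35 in all groups.

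Genes of meningeal, mural and endothelial cells, which also make vimentin, were measured beside it. In either diet contrast 0 of them passed the adjusted p (limma). Among all 15521 tested probe sets 0 passed in ZD against PF rats and 1 in ZR against ZRPF rats. That 0 genes of a cell type passed therefore says little about that cell type. An unadjusted p under 0.05 was seen in 1220 of all tested probe sets between ZD and PF rats and in 808 between ZR and ZRPF rats. Of all genes 55.6% were higher in ZD than in PF rats, and 46.9% in ZR than in ZRPF rats. Of 20 listed genes of meninges and mural cells with a probe set, 15 passed the filter, and their mean log2 signal per rat was 8.69 to 9.43 in ZD, 8.64 to 8.84 in PF, 8.47 to 8.65 in ZR and 8.56 to 9.01 in ZRPF rats. Their summed signal was 8002 to 14811 in ZD and 7862 to 9410 in PF rats, and 6897 to 8574 in ZR and 7322 to 10381 in ZRPF rats. With this level as a covariate, the *Vim* difference was 0.25 for ZD against PF, −0.24 for ZR against ZRPF and 0.49 for the difference between these changes. Of the 15 genes, 13 were higher for ZD against PF (6 with an unadjusted p under 0.05) and 12 lower for ZR against ZRPF (2 unadjusted). Their mean over rats was 8.74 in both ZRPF and PF rats, between which *Vim* differed by 0.42. The 13 of 14 endothelial genes above the filter averaged 9.27 to 9.40 in ZD rats, above the 9.09 to 9.23 of PF rats without overlap (2 genes unadjusted). They averaged 9.11 to 9.23 in ZR and 9.05 to 9.27 in ZRPF rats, with a mean of 9.18 in both (0 unadjusted). With their level as a covariate *Vim* differed by 0.44 between ZD and PF rats and −0.34 between ZR and ZRPF rats. *Gfap*, the intermediate filament of astrocytes, averaged 12.46 in ZD, 12.54 in PF, 12.87 in ZR and 12.83 in ZRPF rats. Of 8 microglial genes above the filter 0 passed in either diet contrast. For ZD against PF 6 of them were higher (4 unadjusted), and for ZR against ZRPF 3 were (0 unadjusted). Whether the content of any of these cells had a part in the *Vim* differences was not tested.

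*Foxj1* was higher on average in ZD than in PF rats, but single rats decided by how much. Its log2 signal was 7.48, 8.61, 8.61 and 9.00 in ZD rats 2, 3, 8 and 9, against 7.59, 8.62, 7.49 and 7.57 in PF rats 1, 2, 4 and 6. In each group 1 rat stood with the other group: ZD 2 was the lowest of the 8, and PF 2 was above 3 of the 4 ZD rats. The difference was 0.61 ± 0.28 (SE, 1.52-fold) on the log2 scale, 0.92 without ZD 2, 0.87 without PF 2, 0.41 without ZD 9 and 0.23 without ZD 8 and ZD 9. With the endothelial level as a covariate it was 1.04. *Foxj1* was 8.53, 8.23, 7.87 and 8.48 in ZR rats 7, 10, 13 and 15, against 7.98, 8.04, 8.14 and 8.44 in ZRPF rats 2, 4, 5 and 6. These groups overlapped along most of their range, with a log2 difference of 0.13 ± 0.28 (SE), or −0.08 with an astrocyte list as a covariate. Means were 8.42 ± 0.66 in ZD, 7.82 ± 0.54 in PF, 8.28 ± 0.30 in ZR and 8.15 ± 0.20 in ZRPF rats (SD, n = 4 each), an order in which every neighbour overlapped the next.

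The axonemal genes *Drc12* and *Tekt1* had their highest means in ZRPF rats. Their promoters are shown because both encode axonemal proteins and ciliary genes are known to carry binding sites of RFX factors. A link between promoter letters and the levels of these genes was not tested. The 250 bases before the annotated start are given 5′ to 3′ on the strand of the gene, from RefSeq on the GRCr8 build. Capitals mark the letters GTTGCC, a core of the site of RFX factors.
Drc12 (chr8:53474409-53474658, plus strand): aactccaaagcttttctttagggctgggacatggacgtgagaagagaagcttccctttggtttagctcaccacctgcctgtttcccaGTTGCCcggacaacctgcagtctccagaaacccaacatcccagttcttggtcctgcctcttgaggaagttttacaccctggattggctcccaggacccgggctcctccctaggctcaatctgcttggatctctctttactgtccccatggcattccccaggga
Tekt1 (chr10:57479122-57479371, minus strand): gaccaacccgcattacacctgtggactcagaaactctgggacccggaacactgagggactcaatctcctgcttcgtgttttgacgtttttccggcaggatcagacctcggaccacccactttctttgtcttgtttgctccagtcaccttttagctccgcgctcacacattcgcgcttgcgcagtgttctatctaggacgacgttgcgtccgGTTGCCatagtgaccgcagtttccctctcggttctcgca

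The first base of GTTGCC lay 163 bases before the start of *Drc12* and 39 bases before that of *Tekt1*. The table of promoters held 3 of the 5 genes, *Vim*, *Drc12* and *Tekt1*, and the *Vim* window (chr17:81577011-81577310, plus strand) held neither these letters nor the forkhead letters TGTTTAC and TGTTTGT on either strand. The windows of *Drc12* and *Tekt1* held no forkhead letters. Over windows from 250 bases before to 50 after the start, GTTGCC on either strand was in 12.2% of 33469 rat promoters, TGTTTAC in 3.8% and TGTTTGT in 6.4%. These are matches of letters, not shown to be bound.

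*Drc12* differed little between ZD and PF rats and was lower on average in ZR than in ZRPF rats. Its log2 signal was 8.33, 7.73, 8.38 and 8.38 in ZD rats 2, 3, 8 and 9, against 8.02, 8.38, 8.00 and 8.02 in PF rats 1, 2, 4 and 6. ZD 3 lay below all PF rats and PF 2 reached the top of the ZD rats. The difference was 0.10 ± 0.15 (SE) on the log2 scale, 0.25 without ZD 3 and −0.08 without ZD 8 and ZD 9. *Drc12* was 8.66, 8.12, 8.18 and 8.57 in ZR rats 7, 10, 13 and 15, against 8.86, 8.76, 8.56 and 8.70 in ZRPF rats 2, 4, 5 and 6. The groups overlapped, and the difference was −0.34 ± 0.15. Means were 8.20 ± 0.32 in ZD, 8.11 ± 0.18 in PF, 8.38 ± 0.27 in ZR and 8.72 ± 0.12 in ZRPF rats (SD, n = 4 each), and each neighbour in this order overlapped the next.

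*Tekt1* showed no direction between ZD and PF rats. Its log2 signal was 7.83, 7.57, 7.66 and 7.56 in ZD rats 2, 3, 8 and 9, against 8.10, 7.29, 7.45 and 7.59 in PF rats 1, 2, 4 and 6. The PF rats spanned the whole range of the ZD rats, and PF 2 was below the filter level. The difference was 0.05 ± 0.15 (SE) on the log2 scale, −0.06 to 0.21 when 1 rat was left out, and −0.06 with the endothelial level as a covariate. *Tekt1* was 7.64, 7.67, 7.45 and 7.70 in ZR rats 7, 10, 13 and 15, against 7.98, 7.98, 7.75 and 7.79 in ZRPF rats 2, 4, 5 and 6. All ZR rats lay below all ZRPF rats, by −0.26 ± 0.15. With an astrocyte list as a covariate this difference was −0.16. Means were 7.66 ± 0.13 in ZD, 7.61 ± 0.35 in PF, 7.62 ± 0.11 in ZR and 7.88 ± 0.12 in ZRPF rats (SD, n = 4 each). ZD, ZR and PF rats overlapped one another in this order, and ZRPF overlapped ZD.

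*Crym* was lowest in ZR rats and varied widely between rats in the other groups. Its log2 signal was 9.36, 9.49, 8.68 and 9.34 in ZD rats 2, 3, 8 and 9, against 9.13, 8.99, 9.72 and 8.41 in PF rats 1, 2, 4 and 6. PF rats held both the highest and the lowest of these 8 values. The difference was 0.16 ± 0.25 (SE) on the log2 scale, 0.37 without PF 4 and −0.06 without PF 6. *Crym* was 8.48, 8.65, 8.96 and 8.53 in ZR rats 7, 10, 13 and 15, against 9.29, 8.39, 9.50 and 9.05 in ZRPF rats 2, 4, 5 and 6. ZRPF 4 lay below all ZR rats, while the other ZRPF rats lay above all of them. The difference was −0.40 ± 0.25, −0.62 without ZRPF 4 and −0.25 without ZRPF 5. Means were 9.22 ± 0.36 in ZD, 9.06 ± 0.54 in PF, 8.66 ± 0.22 in ZR and 9.06 ± 0.48 in ZRPF rats (SD, n = 4 each), with overlap between every neighbour in level.

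Genes of the telencephalon (cortex, hippocampus and striatum), where neurons also make *Crym*, overlapped between groups. Of 13 listed genes of cortex, hippocampus and striatum with a probe set, 7 passed the filter, and their mean log2 signal was 8.68 to 9.36 in ZD, 8.57 to 9.29 in PF, 8.61 to 8.86 in ZR and 8.60 to 9.17 in ZRPF rats. Their summed signal was 3989 to 6854 in ZD and 3747 to 6739 in PF rats, and 4178 to 4508 in ZR and 3945 to 5518 in ZRPF rats. In both diet contrasts 0 of the 7 passed the adjusted p (limma) and 0 had an unadjusted p under 0.05. Almost no probe set on the whole array passed the adjusted p, so the first of these counts says little. With this level as a covariate the *Crym* difference was 0.00 between ZD and PF rats and −0.27 between ZR and ZRPF rats. All 14 listed genes of thalamus and hypothalamus passed the filter, so the labelled tissue had its markers, at 11.06 to 11.40 in ZD, 11.27 to 11.35 in PF, 11.40 to 11.64 in ZR and 11.52 to 11.53 in ZRPF rats.

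**Figure D2:**
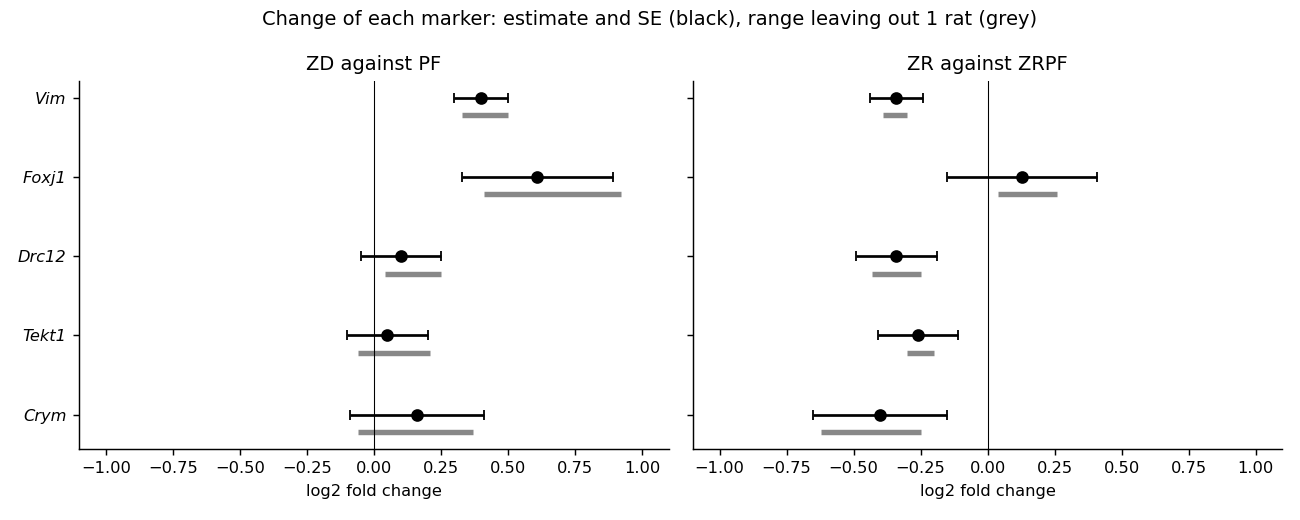
Log2 fold change of each marker, ZD against PF (left) and ZR against ZRPF (right): point and black line, estimate and SE from 16 arrays; grey bar, range when 1 rat is left out. For ZD against PF the grey bars of *Tekt1* and *Crym* cross 0, and for ZR against ZRPF all but *Foxj1* lie below 0.

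Across the whole array, few probe sets passed a test of these diet contrasts. In limma with Benjamini-Hochberg adjustment, 0 of 15521 probe sets (0%) passed an adjusted p of 0.05 for ZD against PF, with 1220 at an unadjusted p under 0.05. For ZR against ZRPF 1 passed (0.00644%), with 808 unadjusted, and for the difference between these changes 0 passed (0%), with 1025 unadjusted. ZD and PF rats were without overlap in 4.19% of probe sets, against 0 of the 5 markers. ZR rats were all below ZRPF rats in 1.58% of probe sets, against 2 of the 5 markers, *Vim* and *Tekt1*, from which nothing is read because that contrast chose them. All 5 markers had a positive difference for ZD against PF, which chose 2 of them, and the 4 that ZR against ZRPF chose were negative there. These signs follow from the choice of markers at least in part, and nothing is read from them either.

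The other genes of the motile cilium gave no call in either diet contrast. Without the markers, 36 genes of the cilium and ependyma list were tested, each by its brightest probe set. For ZD against PF 24 were higher and 12 lower, 0 passed the adjusted p and 1 had an unadjusted p under 0.05, and the median log2 difference was 0.07, against 0.02 over all 9278 genes. In ZR against ZRPF rats 8 were higher and 28 lower, 0 passed and 2 had an unadjusted p under 0.05, with a median of −0.08, against −0.01 over all genes. The genes of smallest p for ZD against PF were not past the threshold either. They were *Tm4sf1* (0.25), *Tctn1* (0.26), a protein of the ciliary transition zone, and *Dnai1* (0.25), an intermediate chain of the outer dynein arm, among the higher. Among the lower were *Cfap69* (−0.30, and 0.01 on its other tested probe set), *Zmynd10* (−0.27), which is needed to assemble dynein arms, and *Iqub* (−0.23). The ZR against ZRPF genes of smallest p were *Dynlt2b* (0.19), *Drc3* (0.17), of the same regulatory complex as *Drc12*, and *Cfap20* (0.12), with *Nme7* (−0.25), *Cd24* (−0.28) and *Spef1* (−0.20), of the central pair of the axoneme, on the other side.

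The other tanycyte genes gave no call either. Of 22 tested, 14 were higher and 8 lower for ZD against PF, 0 passed and 4 had an unadjusted p under 0.05, with a median log2 difference of 0.05. For ZR against ZRPF 13 were higher and 9 lower and 0 passed, with a median of 0.05, against −0.01 over all genes. The shares of all genes that were higher in these contrasts were 55.6% and 46.9%. For ZD against PF the genes of smallest p were *Tmem176a* (0.29), *Ptn* (0.15), the growth factor pleiotrophin, and *Sox2* (0.12), a transcription factor of neural stem cells, with *Scn7a* (−0.38), *Prom1* (−0.22) and *Deptor* (−0.22) on the other side. *Sox2* had a second tested probe set, with −0.17 for ZD against PF. *Scn7a* encodes a sodium channel that senses the sodium level of body fluids. The ZR against ZRPF genes were *Sox2* (0.27), *Nr2f2* (0.15) and *Vcan* (0.16), a proteoglycan of the matrix, with *Mest* (−0.29), *Cd59b* (−0.09) and *Deptor* (−0.09). All these values are log2 differences that did not pass the threshold.

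**Figure D3:**
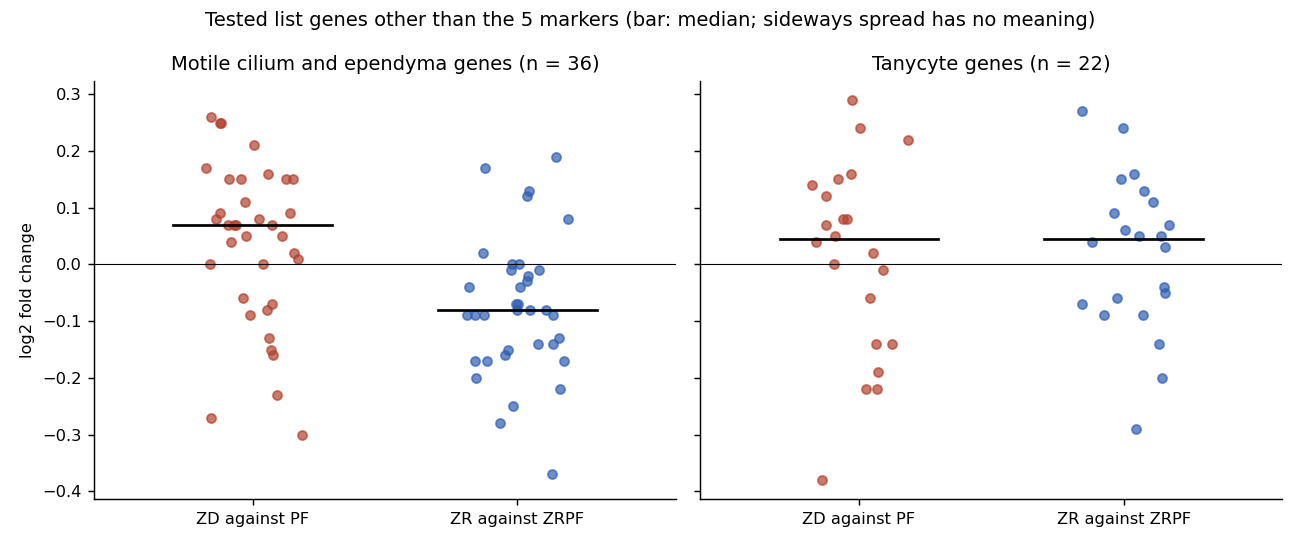
Log2 fold change of the tested list genes other than the 5 markers, 36 motile cilium and ependyma genes (left) and 22 tanycyte genes (right), for ZD against PF (left in each) and ZR against ZRPF (1 point per gene, bar at the median). The cilium medians were 0.07 and −0.08 and both tanycyte medians 0.05, and no gene passed the adjusted threshold.

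Between the pair-fed groups of the experiments, ZRPF against PF, age, days on a ration and the experiment itself cannot be told apart. *Vim* (0.42 ± 0.10, SE, on the log2 scale) and *Drc12* (0.62 ± 0.15) were higher in all ZRPF rats than in all PF rats. Such a pattern was seen in 12% of probe sets, and 15.7% of all probe sets passed the adjusted p. *Foxj1* differed by 0.33 ± 0.28, *Tekt1* by 0.27 ± 0.15 and *Crym* by 0.00 ± 0.25, each with overlap. The beta-actin ratio moved with this contrast, at 4.14 to 5.59 in ZRPF and 2.82 to 3.31 in PF rats, and its part was not tested. The GAPDH ratio was 1.11 to 1.23 in ZRPF and 1.07 to 1.1 in PF rats. Of 13 astrocyte genes above the filter (of 14 with a probe set), 10 were higher and 3 lower, and 3 passed, all higher, against 15.4% of all genes that passed. Their mean level was 12.61 to 12.69 in ZRPF and 12.33 to 12.59 in PF rats (mean log2 signal), with summed signals of 112680 to 128109 in ZRPF and 97018 to 113738 in PF rats. With their level as a covariate *Foxj1* differed by 0.81, *Tekt1* by 0.05, *Vim* by 0.45 and *Drc12* by 0.73.

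Among the other listed genes, 2 of 36 cilium genes passed for ZRPF against PF, both higher, against 15.4% of all genes that passed. *Cfap144*, a cilia- and flagella-associated gene, had log2 signals of 8.53 to 9.07 in ZRPF rats, against 8.04 to 8.34 in PF rats, without overlap (0.56 ± 0.12, SE, limma adjusted p 0.00465). Its second probe set averaged 8.47 in ZRPF and 8.31 in PF rats, with overlap. *Ak7*, an adenylate kinase of the axoneme, had 7.69 to 8.29 in ZRPF and 7.12 to 7.71 in PF rats (0.63 ± 0.15, adjusted p 0.00711). Its call was lost with the astrocyte covariate (0.43, adjusted p 0.253), with the replicate block over the 6 arrays of shared numbers (adjusted p 0.0815) and on these arrays unpaired (adjusted p 0.0951). Of the 22 tanycyte genes by their brightest probe set, 1 passed higher and 1 lower, against the same 15.4%. *Mest* was higher (0.45 ± 0.13, adjusted p 0.0284) and *Cd59b* lower (−0.40 ± 0.07, adjusted p 0.0011), each without overlap. Other probe sets of tanycyte genes differed more. *Vcan* was higher on 2 tested probe sets (1.32 ± 0.14, adjusted p 7.04e-06, and 1.5 ± 0.17, adjusted p 1.08e-05), with 8.65 to 9.05 and 8.47 to 8.96 in ZRPF rats, against 7.36 to 7.60 and 7.0 to 7.35 in PF rats. Its brightest probe set went the other way without passing (−0.34 ± 0.12, adjusted p 0.0615), so the probe sets of *Vcan* disagreed. The dimmer tested probe set of *Nr2f2* was higher (1.01 ± 0.22, adjusted p 0.00465), and the brighter did not pass (0.19 ± 0.08, adjusted p 0.118).

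The *Cfap144* call was lost with the choroid plexus level (0.38, adjusted p 0.0687) or the astrocyte level (adjusted p 0.0703) as a covariate, with the replicate block (adjusted p 0.101) and on the same arrays unpaired (adjusted p 0.0635). *Cd59b* passed in all 24 alternative settings for ZRPF against PF, and *Mest* passed in 13 of 23 alternative settings, not without PF 1, PF 4, ZRPF 2 or ZRPF 5 (adjusted p 0.0614 to 0.0947), nor with quantile normalization, median centring, the choroid plexus or astrocyte covariate, the replicate block or these arrays unpaired (0.0651 to 0.187).

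Recovered against still deficient rats, ZR against ZD, compared the same 2 experiments. Zinc recovery, age, ration and the experiment itself cannot be told apart in it. *Vim* differed by −0.32 ± 0.10 (SE, log2 scale), or −0.07 with the meningeal and mural level as a covariate. Of the 15 meningeal and mural genes 14 were lower and 1 higher, with a median log2 difference of −0.52. Of these genes 6 passed, all lower, against 16.6% of all genes. Of 13 endothelial genes 12 were lower and 1 higher, and 1 passed, lower. Whether the content of these cells had a part in the *Vim* difference was not tested. *Crym* differed by −0.56 ± 0.25, or −0.26 with the telencephalon level. *Foxj1* differed by −0.15 ± 0.28 and by 0.04 without ZD 9, *Drc12* by 0.18 ± 0.15 and *Tekt1* by −0.04 ± 0.15. All 5 markers overlapped between the groups, while 19.5% of probe sets did not and 17.3% passed the adjusted p. Of the 36 other cilium genes 1 passed higher and 1 lower, against 16.6% of all genes that passed. *Ak7* was higher (0.50 ± 0.15, limma adjusted p 0.0271) and *Rarres2*, the chemokine chemerin, lower (−0.35 ± 0.12, adjusted p 0.0471). Of the 22 tanycyte genes 3 passed higher and 1 lower. Higher were *Nr2f2*, a nuclear receptor (0.40 ± 0.08, adjusted p 0.00279), *Scn7a* (0.53 ± 0.17, adjusted p 0.0437) and *Tgfb2*, a growth factor (0.45 ± 0.15, adjusted p 0.0464). *Cd59b* was lower (−0.35 ± 0.07, adjusted p 0.00315). The second tested probe set of *Nr2f2* was higher too (1.18 ± 0.22, adjusted p 0.00156). *Vcan* was higher on the same 2 probe sets (1.53 ± 0.14, adjusted p 1.38e-06, and 1.38 ± 0.17, adjusted p 2.53e-05), while its brightest did not pass (−0.19 ± 0.12, adjusted p 0.282).

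How far these calls for ZR against ZD held differed by gene. *Nr2f2*, by its brightest probe set, held in 20 of 22 alternative settings, not with the meningeal (adjusted p 0.0514) or endothelial (adjusted p 0.0782) covariate. *Cd59b* held in 19 of 22, not with these covariates (adjusted p 0.0937 and 0.0969) nor without ZD 8 and ZD 9 (adjusted p 0.0624). *Ak7* held in 11 of 21 settings and was 0.30 with the astrocyte (adjusted p 0.397), 0.32 with the endothelial (adjusted p 0.349) and 0.37 with the meningeal covariate (adjusted p 0.297). *Ak7* was also lost without ZD 2, ZD 8, ZR 7 or ZR 10 (adjusted p 0.0554 to 0.0738). *Scn7a* held in 7 of 22 settings, with adjusted p up to 0.126, and was lost without any 1 rat but ZD 8 (adjusted p 0.0551 to 0.108). *Rarres2* held in 6 of 22 settings (adjusted p up to 0.30) and *Tgfb2* in 6 of 21 (up to 0.394). *Rarres2* was lost without ZD 3, ZD 8, ZD 9, ZR 7, ZR 13 or ZR 15 (adjusted p 0.0557 to 0.131), and *Tgfb2* without ZD 2, ZD 3, ZD 8, ZR 10, ZR 13 or ZR 15 (adjusted p 0.0556 to 0.131).

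Choroid plexus, which lies in the third ventricle and can be taken with the diencephalon, differed widely between rats. Its transthyretin gene *Ttr* had a signal of 905 to 9930 in ZD, 209 to 1320 in PF, 327 to 20000 in ZR and 524 to 21200 in ZRPF rats. The 11 of 20 choroid plexus genes above the filter averaged 8.27 to 9.25 in ZD, 8.01 to 8.40 in PF, 8.14 to 9.89 in ZR and 8.18 to 9.99 in ZRPF rats. Their summed signal was 10056 to 22490 in ZD, 9186 to 10789 in PF, 8405 to 35908 in ZR and 8825 to 37684 in ZRPF rats. With this level as a covariate *Foxj1* differed by 0.60 for ZD against PF, and *Vim* by 0.34 between ZD and PF rats and −0.32 between ZR and ZRPF rats. Of the 11 genes, 10 were higher and 1 lower for ZD against PF (3 with a limma unadjusted p under 0.05). Their median log2 difference was 0.49, against 0.02 over all genes. For ZR against ZRPF 3 were higher and 8 lower, with a median of −0.15. In ZRPF against PF all 11 were higher (1 passed, against 15.4% of all genes), with a median of 0.83. *Ttr* differed by 3.15 ± 1.28 for ZD against PF (SE, log2 scale) and *Folr1*, a folate receptor, by 0.46 ± 0.42. *Slc22a8* differed by 0.49 ± 0.14, without overlap (seen in 4.19% of probe sets), *Igfbp2* by 0.49 ± 0.25 and *Enpp2* by 0.05 ± 0.18. None passed the threshold. Whether plexus content had a part in the markers was not tested.

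**Figure D4:**
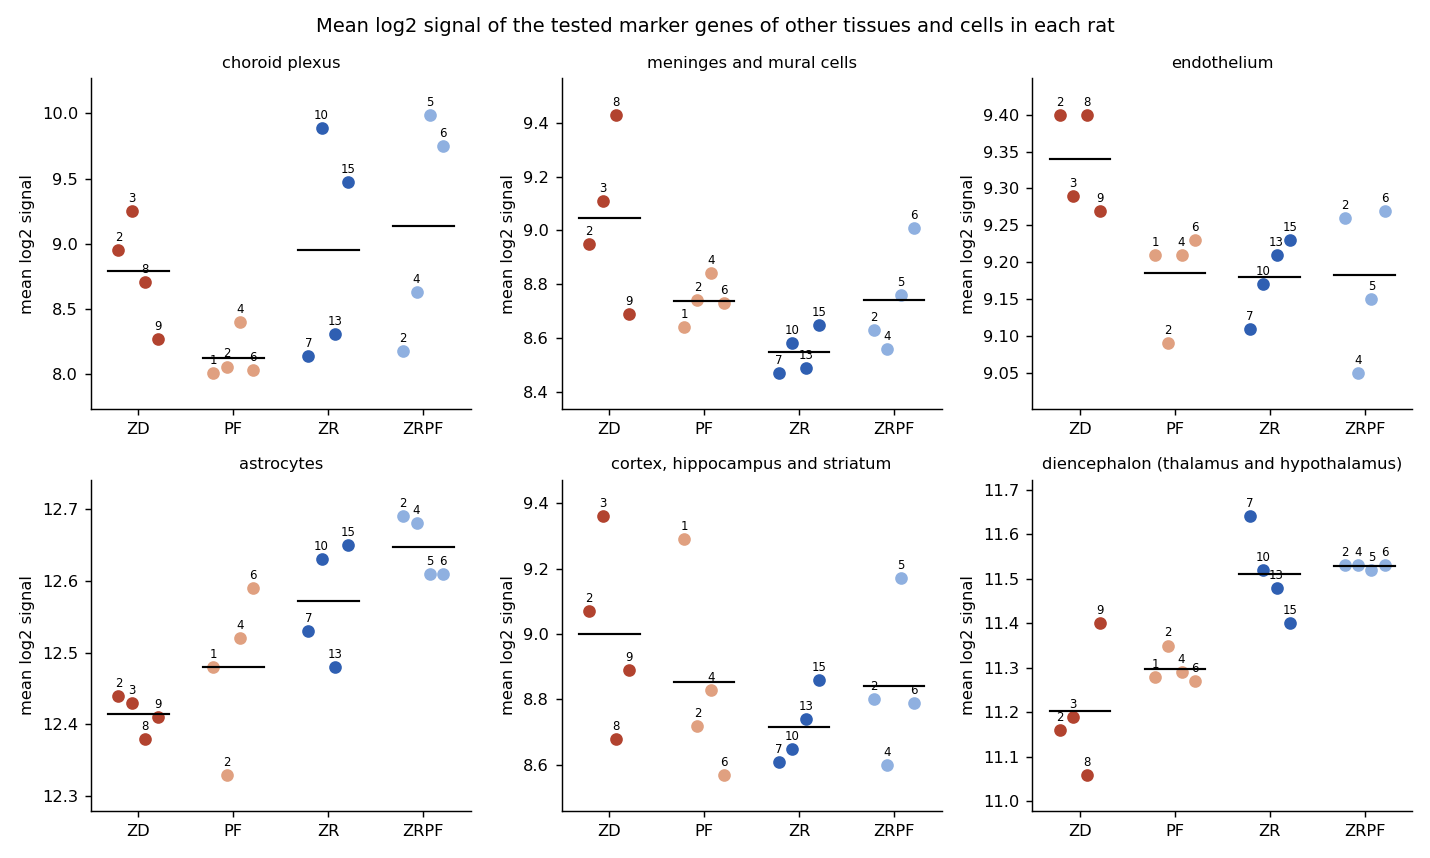
Mean log2 signal per rat of the tested genes on marker lists of other cells that a dissected diencephalon can hold (1 point per rat, by group). Choroid plexus ranged from 8.18 to 9.99 in ZRPF but only 8.01 to 8.40 in PF rats, and the meningeal and mural list reached 9.43 in ZD rats.

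Within groups, the 5 markers did not vary together in a way that passed a test. Each signal was taken as its deviation from the group mean, so the group means that chose the markers did not enter, and arrays were shuffled within groups 100000 times. Over 16 arrays and 10 pairs, Pearson r ran from −0.45 (*Foxj1* and *Tekt1*, permutation p 0.197) to 0.30 (*Foxj1* and *Drc12*, permutation p 0.385), with adjusted permutation p from 0.845 to 0.896. Spearman's rho for these pairs was −0.29 (permutation p 0.32) and 0.49 (permutation p 0.0852), and no pair had an adjusted p for rho below 0.426. Without the 2 arrays farthest from the median of *Foxj1*, ZD 2 and PF 2, r was 0.11 for *Foxj1* and *Tekt1* and 0.49 for *Foxj1* and *Drc12*. *Vim* and *Foxj1* had an r of 0.22, and of 0.69 without ZD 3 and ZD 9 (adjusted permutation p 0.448).

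**Figure D5:**
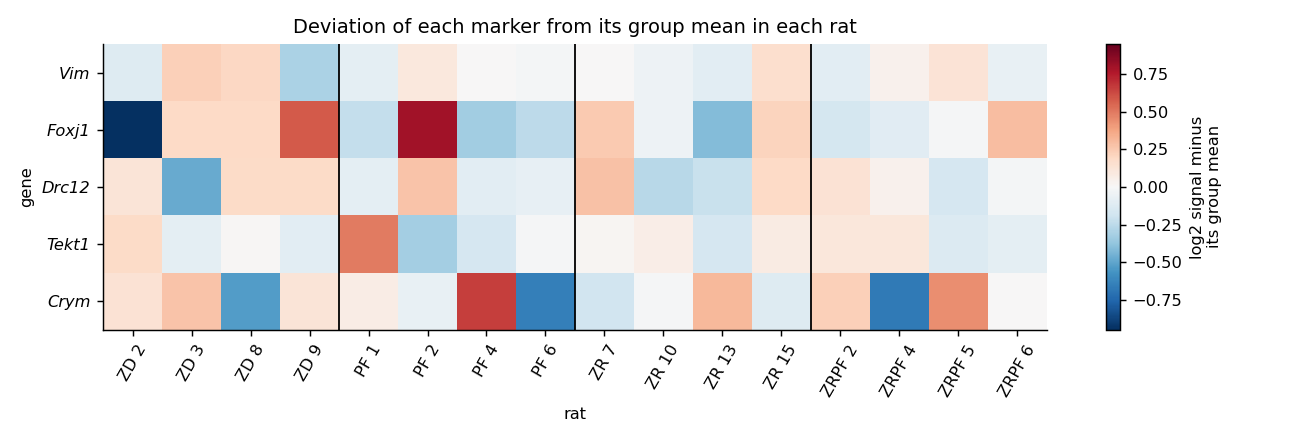
Log2 signal of each marker minus its group mean in each of 16 rats (colour scale in log2 units). The strongest colours, *Foxj1* in ZD 2 and PF 2 and *Crym* in PF 4, PF 6 and ZRPF 4, fall on different rats for different genes.

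The named genes whose within-group deviations were most like those of each marker were found over the same 16 arrays and are given as descriptions. For *Vim* they were *Rnf111* (r 0.93), *Zmym6* (r 0.91) and *Inpp4b* (r 0.90). For *Foxj1* they were *Adgrg2* (r 0.88), *Fbxw9* (r 0.87) and *Slc7a6os* (r 0.82), and for *Drc12* *Vps26c* (r 0.87), *Usp21* (r 0.86) and *Dut* (r 0.83). For *Tekt1* they were *Jarid2* (r 0.84), *Csnk1a1* (r 0.83) and *Desi2* (r 0.81), and for *Crym* *Setd2* (r 0.89), *Kdm2b* (r 0.85) and *Sspn* (r 0.84). None of these genes was one of the other markers, and each r is picked as the highest over all named tested probe sets.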

How the data were processed

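Deposited values were MAS5 signal intensities on a linear scale, 1 per probe set and array, made by the authors per the submitters' processing notes (version not given in the sources used here). RNA (100 ng) had been labelled from the 3 prime end, per the labels. In every array the mean signal without 2% of probe sets at each end was 500.13 to 500.15. Signals were taken as log2 with no further normalization (median signal 156 to 172). Of 31099 probe sets 57 controls were left out. The platform annotation gave 20826 probe sets a single gene, 436 several and 9780 none, and 20758 of the first had a gene identifier in the current rat gene table (GRCr8).

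All 16 arrays were fitted with limma 3.58.1 in R 4.3.3 (intensity trend, two-sided, Benjamini-Hochberg over 15521 probe sets). Permutations used Python 3.11.15 and numpy 2.4.6. Arrays set the precision by their number, 4 per group. In data simulated for ZD against PF over 15521 probe sets, the fit recovered 42 of 67 changes of 0.5, 63 of 67 of 1 and 66 of 66 of 2 (log2), with 10 false calls. Normal noise was drawn for each probe set on its own, while probe sets of real arrays can vary together. These counts are therefore a check of the fit, not the power of the real contrast.

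The markers and gene lists were chosen with earlier results of these data known. Named list genes were up to 6 per direction past the threshold by smallest p, or else the 3 of smallest p, plus the choroid plexus, filament, tanycyte and RFX genes given by name. PF and ZRPF rats of equal number were not taken as pairs: their deviations correlated at 0.079, 0.02 and 0.035. Alternatives were other normalizations, filters and fits, marker lists of other cells as covariates, and arrays left out.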

Additional observations from a re-analysis of the deposited data

Results flagged for a closer look

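In 4 of 48 groups of 4 arrays examined (12 genes), 1 rat lay far from the other 3, and chance gives about 1 in 20. *Foxj1* was 8.62 in PF 2, against 7.49 to 7.59 in the other PF rats (log2 signal). *Drc12* was 8.38 in the same rat, against 8.00 to 8.02 in the others. *Drc12* was 7.73 in ZD 3, against 8.33 to 8.38 in the other ZD rats. *Gfap* was 12.85 in PF 6, against 12.39 to 12.46 in the other PF rats.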

How the results depend on the processing

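Covariates for meningeal, endothelial and astrocyte genes and the fits without ZD 8 and ZD 9 were chosen after seeing the data. Of 580 alternative log2 differences of the 5 markers, 574 stayed within 1 SD of the spread between rats. The other 6 were, for ZRPF against PF, *Vim* 0.33 and *Drc12* 0.79 (choroid plexus covariate) and *Foxj1* 0.81 (astrocyte covariate), for ZR against ZD, *Vim* −0.07 (meningeal covariate) and *Tekt1* −0.25 (astrocyte covariate), and the *Vim* difference between the diet changes, 0.49 (meningeal covariate). All 50 alternative within-group correlations stayed short of the threshold.

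Counts of probe sets moved more. For ZD against PF, 1 was called without ZD 8 and ZD 9 and 0 to 3 with 1 rat left out. For ZR against ZRPF the count fell to 0 under quantile normalization, no filter, a filter that kept the brightest probe sets and no trend. It was also 0 on the arrays of that contrast alone and with the telencephalon, endothelial and astrocyte covariates. With 1 rat left out it was 0 to 9. For ZRPF against PF it was 1354 (choroid plexus), 765 (astrocytes), 1085 with the replicate block on 6 arrays, 1305 on these arrays without it, and 1681 to 2264 with 1 rat left out. For ZR against ZD it was 1302 (meninges), 1090 (endothelium), 884 (astrocytes), 1572 without ZD 8 and ZD 9, and 2028 to 2588 with 1 rat left out. For the difference between the changes it was 0 to 1.

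The lists of 39 cilium and 24 tanycyte genes counted next include the markers, which were chosen on the same arrays. Only how far the counts moved between settings is therefore described. Of all genes 15.4% were called for ZRPF against PF and 16.6% for ZR against ZD. With the markers included, the cilium list had 3 calls for ZRPF against PF. It had 0 with the stricter filter or with astrocytes, 1 with the replicate block or on the same arrays without it, and 3 to 5 with 1 rat left out. For ZR against ZD it had 2, and 0 with no filter or the meningeal, endothelial or astrocyte covariate. It had 1 with its own arrays, the choroid plexus or telencephalon covariate or without ZD 8 and ZD 9. With 1 rat left out it had 0 to 2. The tanycyte list had 3 for ZRPF against PF, 5 with median centring, 1 with choroid plexus or astrocytes, and 2 to 3 with 1 rat left out. For ZR against ZD it had 5, and 3 with median centring, no filter, no trend, choroid plexus or without ZD 8 and ZD 9. It had 2 with telencephalon or astrocytes, 1 with meninges, 0 with endothelium, and 2 to 4 with 1 rat left out. For the difference between the changes it had 0 to 1. Causes of these shifts were not tested. *Tekt1*, the dimmest marker, lay closest to the filter.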
